A study of Aliger gigas with 7 samples.

Results

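In all, 6 gene titles naming enzymes of isoprenoid synthesis were followed in the ovaries of queen conchs, large marine snails of the Caribbean and Florida. They are the 6 of 4328 titles of the deposited table whose name contains one of these wordings: farnesyl diphosphate, mevalonate, isopentenyl, geranylgeranyl diphosphate, squalene or hydroxymethylglutaryl. The word mevalonate matched 3 titles, isopentenyl 2 and farnesyl diphosphate 1, and the other wordings matched 0. Titles are protein names given to conch sequences by the authors, so each marks a resemblance to a known protein rather than an established conch gene.

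Ovary RNA of 7 mature wild animals was hybridised to single-colour oligonucleotide arrays, 1 animal per array. The nearshore group held 3 animals from Tingler Island, a site of impaired reproduction. Of these, NF1 and NF3 were normal females and NM3 was an apparent imposex female, that is, a female with male sexual characters. The offshore group held 4 normal females (OF1 to OF4) from Pelican Shoal, where reproduction is normal. No treatment was given, and each group came from 1 place, so site and collection cannot be told apart. Ages beyond maturity are not given in the labels.

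Isoprenoids are built from a small unit with a branched carbon skeleton. In the mevalonate route of animals, mevalonate is phosphorylated in turn by mevalonate kinase and phosphomevalonate kinase, then decarboxylated to isopentenyl diphosphate. An isomerase turns part of this into dimethylallyl diphosphate, and farnesyl diphosphate synthase joins these units to farnesyl diphosphate. From there the branches lead to dolichol, the lipid on which sugar chains for glycoproteins are built, to the side chain of ubiquinone, to heme A, to lipid anchors on proteins and, in many animals, to sterols.

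All values are the deposited ones on a log2 scale, where a step of 1 is a 2-fold difference, and they run from 0.27 to 17.53 over the table. The arrays had mean values between 5.83 and 5.89. NM3 lacked a value for 45 titles and the other arrays for 0 to 3 each, but all 6 isoprenoid titles had a value in every animal. Of the ovary markers, Vitellogenin 2, Piwi-like 1 and Bol, Boule-like were bright. Vitellogenin 2, the yolk precursor, stood at 12.69 in NF1, 17.03 in NF3 and 16.35 in NM3, against 16.81 to 17.34 offshore. Piwi-like 1, a germ cell protein, stood at 11.55 in NF1, 13.47 in NF3 and 13.31 in NM3, against 14.19 to 15.06 offshore. The other 3 of 5 titles on the oocyte and germ cell list had higher means nearshore. Bol, Boule-like, a germ cell RNA-binding protein, stood at 11.74 in NF1, 11.49 in NF3 and 10.44 in NM3, against 9.45 to 10.46 offshore. The titles named for zona pellucida-like domains had changes of 1.29 and 1.13. Their values ran from 3.99 to 6.79 and from 3.62 to 6.81, against a median level of 5.17 over all titles. They are on the list by that wording, which does not by itself mark oocytes or germ cells.

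Of the 6 isoprenoid titles, 3 changed between the sites, and they did not change in one direction. Farnesyl Diphosphate Synthase and Phosphomevalonate Kinase fell nearshore, and Isopentenyl-diphosphate Delta Isomerase 1 rose. A title is said to have risen or fallen where its two-sided limma p, adjusted by Benjamini-Hochberg over all 4328 titles, was under 0.05. By that rule 9.24% of all titles changed, 3.9% higher and 5.34% lower nearshore. The remaining isoprenoid titles did not pass, and all of them were dim, among the 25% of titles with the lowest mean, a boundary of 2.63. The median change over the 6 titles was 0.01, against -0.01 over all titles.

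**Figure D1:**
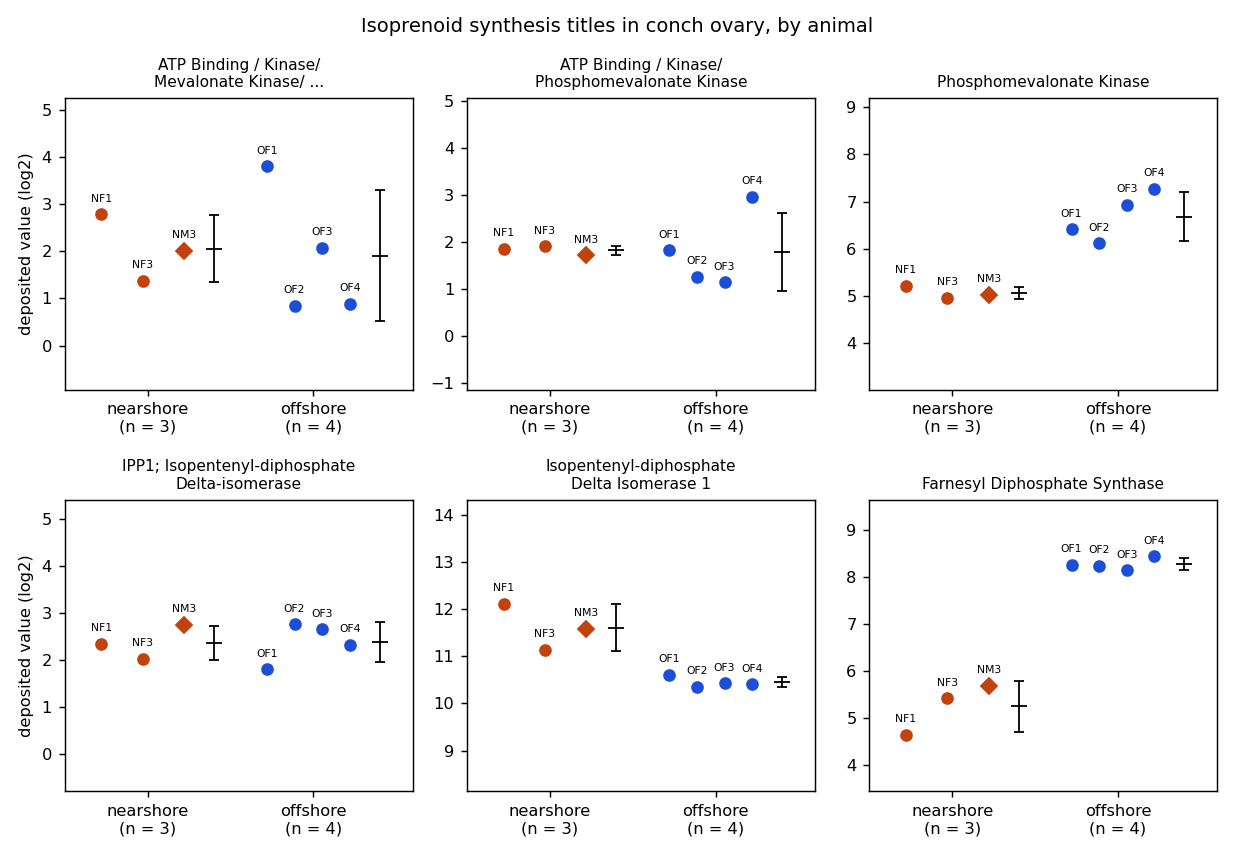
Deposited log2 value of each of the 6 isoprenoid synthesis titles in each animal, nearshore (left) and offshore (right). Points are animals, the diamond is the imposex female NM3, bars are mean ± SD, and each panel spans the same number of log2 units. The sites do not overlap for Phosphomevalonate Kinase, Isopentenyl-diphosphate Delta Isomerase 1 and Farnesyl Diphosphate Synthase, and overlap for the others.

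The first of these steps is mevalonate kinase, which adds the first phosphate to mevalonate. Its single title, ATP Binding / Kinase/ Mevalonate Kinase/ Phosphotransferase, Alcohol Group As Acceptor, had values of 2.79 in NF1, 1.37 in NF3 and 2.01 in NM3, against offshore values of 3.81 (OF1), 0.84 (OF2), 2.08 (OF3) and 0.89 (OF4). The offshore animals spanned 2.98 log2 units and enclosed all nearshore values. Its offshore SD of 1.40 was larger than that of most titles, at percentile 96.3 of all titles. The mean was 2.05 ± 0.71 nearshore (SD, n = 3) and 1.90 ± 1.40 offshore (n = 4). The log2 fold change was 0.15 (95% interval -1.63 to 1.92, limma adjusted p = 0.934), so a change of 2-fold or more in either direction lies within the interval.

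Phosphomevalonate kinase adds the second phosphate. The title Phosphomevalonate Kinase had values of 5.21 in NF1, 4.96 in NF3 and 5.02 in NM3, against offshore values of 6.41 (OF1), 6.11 (OF2), 6.93 (OF3) and 7.27 (OF4). The nearshore animals lay close together, and the nearest animals of the sites, NF1 and OF2, were 0.90 apart. The mean was 5.06 ± 0.13 nearshore (SD, n = 3) and 6.68 ± 0.52 offshore (n = 4). Phosphomevalonate Kinase fell by 1.62 on the log2 scale (SE 0.32, 95% interval -2.37 to -0.86, limma adjusted p = 0.0302), which is 3.06-fold lower.

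The second title for this enzyme, ATP Binding / Kinase/ Phosphomevalonate Kinase, stood near the bottom of the scale. It had 1.85 in NF1, 1.91 in NF3 and 1.72 in NM3, against offshore values of 1.82 (OF1), 1.26 (OF2), 1.14 (OF3) and 2.96 (OF4). The sites overlapped, and OF4 lay above every other animal. Its log2 fold change was 0.03 (95% interval -1.03 to 1.08, limma adjusted p = 0.986).

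Isopentenyl diphosphate isomerase interconverts the isopentenyl and dimethylallyl forms, so that both building blocks are at hand. Isopentenyl-diphosphate Delta Isomerase 1 was bright, with 12.12 in NF1, 11.14 in NF3 and 11.58 in NM3, against offshore values of 10.61 (OF1), 10.36 (OF2), 10.43 (OF3) and 10.41 (OF4). Every nearshore animal lay above every offshore animal, and the offshore animals spanned only 0.26 log2 units. The mean was 11.62 ± 0.49 nearshore (SD, n = 3) and 10.45 ± 0.11 offshore (n = 4), where the SD was at percentile 5.5 of all titles. Isopentenyl-diphosphate Delta Isomerase 1 rose by 1.16 on the log2 scale (SE 0.28, 95% interval 0.51 to 1.82, limma adjusted p = 0.0470), which is 2.24-fold higher. Centring each array on its median gave limma adjusted p = 0.0544 for a change of 1.13.

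The other isomerase title, IPP1; Isopentenyl-diphosphate Delta-isomerase, was dim. It had 2.34 in NF1, 2.02 in NF3 and 2.74 in NM3, against offshore values of 1.8 (OF1), 2.76 (OF2), 2.65 (OF3) and 2.32 (OF4). The sites overlapped almost fully. The log2 fold change was -0.02 (95% interval -0.77 to 0.74, limma adjusted p = 0.990).

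Farnesyl diphosphate synthase makes the molecule from which the branches start. Farnesyl Diphosphate Synthase had values of 4.64 in NF1, 5.41 in NF3 and 5.68 in NM3, against offshore values of 8.25 (OF1), 8.23 (OF2), 8.13 (OF3) and 8.43 (OF4). A gap of 2.45 log2 units separated the highest nearshore animal, the imposex female, from the lowest offshore animal. The mean was 5.24 ± 0.54 nearshore (SD, n = 3) and 8.26 ± 0.12 offshore (n = 4).

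Farnesyl Diphosphate Synthase fell by 3.02 on the log2 scale (SE 0.30, 95% interval -3.71 to -2.32, limma adjusted p = 0.0108). This is 8.09-fold lower, with an interval from 5.0-fold to 13.1-fold. Of all 4328 titles it had the 3rd smallest p and the 12th most negative change. The offshore animals were nearly alike, with an SD at percentile 6.49 of all titles and a median SD offshore of 0.44 over all titles.

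In 3 of the 6 isoprenoid titles the sites did not overlap, against 24.4% of all titles. These are the titles that passed, and each had an exact permutation p of 0.0286, two-sided, which is the smallest that 35 assignments of the animals allow. The animal with the lowest Farnesyl Diphosphate Synthase, NF1, had the highest Isopentenyl-diphosphate Delta Isomerase 1. NF1 also had the lowest Vitellogenin 2 and Piwi-like 1 and the highest Bol, Boule-like and the highest value of 1 zona pellucida-like title (6.81), and the part of these in the result was not tested. Without NF1 Farnesyl Diphosphate Synthase still fell, by 2.72 (limma adjusted p = 0.0319).

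The calls differed in how they held when 1 animal was left out. Farnesyl Diphosphate Synthase passed in 7 of 7 such fits, with changes from -3.23 to -2.72. Phosphomevalonate Kinase passed in 1 of 7, without OF2, with changes from -1.8 to -1.42 and limma adjusted p from 0.0420 to 0.0850. Isopentenyl-diphosphate Delta Isomerase 1 passed in 1 of 7, without NF3, with changes from 0.91 to 1.40 and limma adjusted p from 0.0445 to 0.120. Without the imposex female the changes were -3.23 for Farnesyl Diphosphate Synthase (limma adjusted p = 0.0263), -1.59 for Phosphomevalonate Kinase (limma adjusted p = 0.0616) and 1.18 for Isopentenyl-diphosphate Delta Isomerase 1 (limma adjusted p = 0.0851). Fewer titles of the whole table passed in these fits as well, between 34 (without OF4) and 302 (without NM3), against 400 with all animals.

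**Figure D2:**
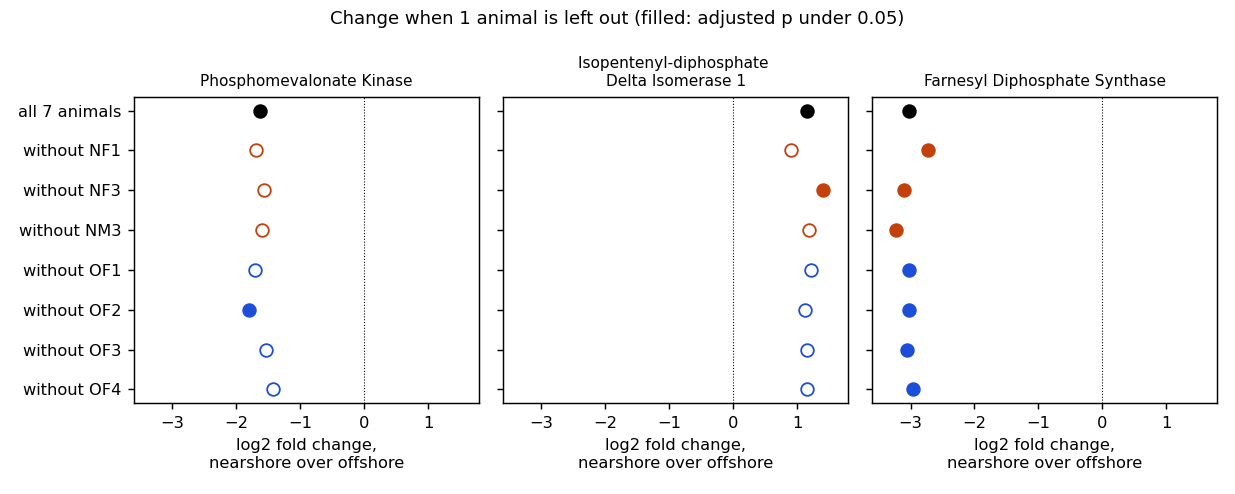
Log2 fold change, nearshore over offshore, of the 3 isoprenoid titles that passed, with all 7 animals and with each left out. Filled points had an adjusted p under 0.05. The direction stays the same in every fit shown, and Farnesyl Diphosphate Synthase is filled throughout.

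A second wording for farnesyl diphosphate synthase stands outside the 6 titles. Farnesyl Pyrophosphate Synthase, a synonym of the enzyme's name that was compared after its values were seen, had 4.63 in NF1, 4.75 in NF3 and 4.0 in NM3, against offshore values of 4.59 (OF1), 4.43 (OF2), 4.34 (OF3) and 3.41 (OF4). The sites overlapped, and its log2 fold change was 0.27 (95% interval -0.57 to 1.11, limma adjusted p = 0.696). The table does not show whether both titles stand for 1 conch gene.

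Thus 3 enzymes had a pair of titles, and within each pair 1 title passed and the other did not. The pairs were picked with these values known, so the within-animal difference between the titles is given as a description, with no test. The size of such a difference has no meaning between different probes, and only its shift between sites is read. For farnesyl diphosphate synthase the difference was 0.78 ± 0.84 nearshore and 4.07 ± 0.64 offshore, so the changes of the titles differed by -3.29. For phosphomevalonate kinase it was 3.24 ± 0.17 nearshore and 4.88 ± 0.64 offshore, a difference of -1.64. For the isomerase it was 9.25 ± 0.48 nearshore and 8.07 ± 0.54 offshore, a difference of 1.18. Averaged with its synonym, a step chosen after the values were seen, farnesyl diphosphate synthase had a change of -1.37. That average joins the changes of -3.02 and 0.27 and adds no separate evidence. The dim titles of the isomerase and of phosphomevalonate kinase may lie near background, which the table does not give.

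**Figure D3:**
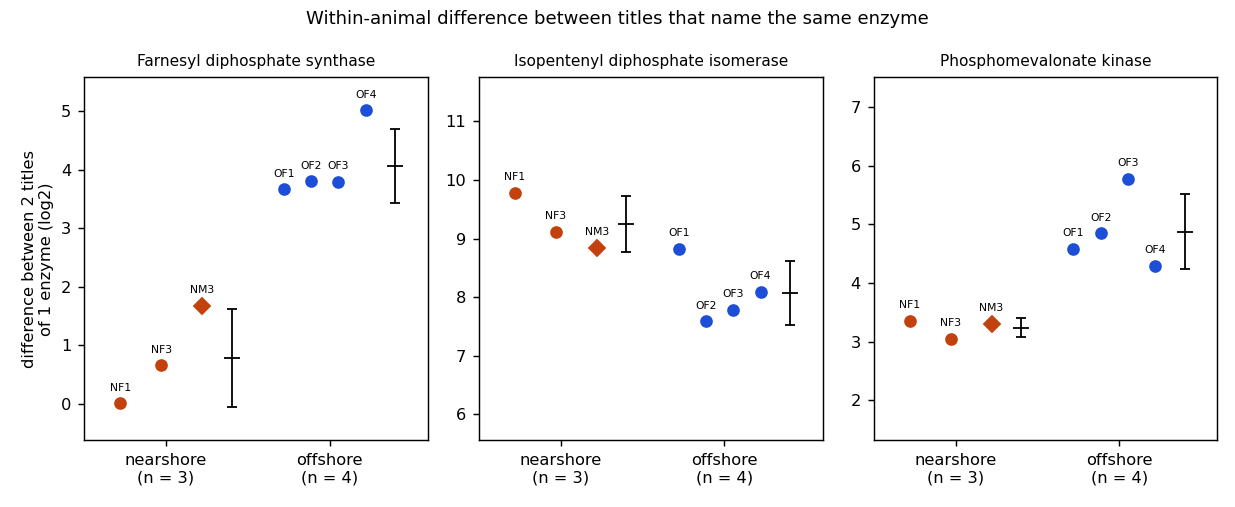
Within-animal difference, in log2 units, between the pair of titles that name 1 enzyme, nearshore (left) and offshore (right). Points are animals, the diamond is NM3, and bars are mean ± SD. Nearshore animals lie below all offshore animals for farnesyl diphosphate synthase and phosphomevalonate kinase, and above them for the isomerase, where NM3 and OF1 nearly touch.

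Enzymes that feed the route or use its products were gathered by title words into a list of 17, which holds Farnesyl Pyrophosphate Synthase. Of these 1 fell, 0 rose and 16 did not pass, so 5.88% changed, against the 9.24% of all titles. Of the 17, 13 had lower means nearshore, and the median change was -0.50. In 6 of the 17 the sites did not overlap with the nearshore animals lower, against 13.5% of all titles, and in 0 with the nearshore animals higher, against 10.9%.

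The dolichol branch held 4 of these 6 titles. Dolichyl-phosphate Mannosyltransferase Polypeptide 3, a small subunit that anchors the enzyme making dolichol-linked mannose, had 7.63 in NF1, 7.27 in NF3 and 7.5 in NM3, against offshore values of 8.79 (OF1), 10.26 (OF2), 8.70 (OF3) and 9.57 (OF4). It fell by 1.86 on the log2 scale (SE 0.41, limma adjusted p = 0.0375). The nearshore animals were alike and the offshore animals spread, and the title passed in 0 of the 7 fits without 1 animal, with limma adjusted p from 0.0517 to 0.104. Array weights, the ordinary pooled-variance test and the animals' code number as a block also left 0 of the 17 titles past the threshold. The count stayed at 1 under the 3 normalizations between arrays and the other variance priors. It was 2 without the dimmest 25% of titles.

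Dehydrodolichyl Diphosphate Synthase lengthens farnesyl diphosphate into the long chain of dolichol. It had 6.03 in NF1, 7.01 in NF3 and 6.30 in NM3, against offshore values of 7.27 (OF1), 7.59 (OF2), 8.26 (OF3) and 8.40 (OF4). All nearshore animals were lower, with a log2 fold change of -1.43 (95% interval -2.33 to -0.53) that did not pass (limma adjusted p = 0.0620). All 6 dolichol titles had lower means nearshore, with changes from -1.86 to -0.50 and a median of -1.02, and the sites did not overlap in 4. In 1 of these 4, Dolichyl-phosphate Mannosyltransferase Polypeptide 2, Regulatory Subunit, the sites nearly touched, at 10.86 in NF3 and 10.87 in OF3. The sites overlapped in the acetylglucosaminephosphotransferase titles, which name the same activity. The one that opens with Similar To was dim, with values from 0.92 to 2.34. Over all titles 50.6% had lower means nearshore and 13.5% were lower without overlap, and the 6 were grouped into a branch after their values were seen.

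The other branches gave smaller or mixed values. Trans-prenyltransferase, a name of the enzyme that builds the side chain of ubiquinone, had a log2 fold change of -1.20 (95% interval -2.0 to -0.39, limma adjusted p = 0.0753). The other 4 ubiquinone titles had changes from -0.38 to 0.34, and 0 of them passed. Farnesyltransferase, CAAX Box, Alpha, a subunit of the enzyme that attaches farnesyl groups to proteins, had 3.05 in NF1, 3.12 in NF3 and 2.59 in NM3, against offshore values of 3.84 (OF1), 4.09 (OF2), 3.58 (OF3) and 3.85 (OF4). Its log2 fold change was -0.92 (95% interval -1.50 to -0.34, limma adjusted p = 0.0634). The other protein prenylation titles, both dim, were Prenyl-dependent CAAX Protease, with a log2 fold change of 0.6 (limma adjusted p = 0.507), and Prenyltransferase/ Zinc Ion Binding, with -0.01 (limma adjusted p = 0.992). The heme A title, COX10 Homolog, Cytochrome C Oxidase Assembly Protein, Heme A: Farnesyltransferase, had a log2 fold change of 0.47 (limma adjusted p = 0.421). It was dim as well, at 2.53 in NM3, against 1.4 in NF1, 1.41 in NF3 and 1.18 to 1.48 offshore. At the entry of the route, Acetyl-Coenzyme A Acetyltransferase 1, which joins acetyl-CoA units, was measured in 2 nearshore animals only, with 9.29 in NF1 and 10.43 in NF3, against 10.13 to 10.52 offshore, and did not pass (limma adjusted p = 0.468).

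**Figure D4:**
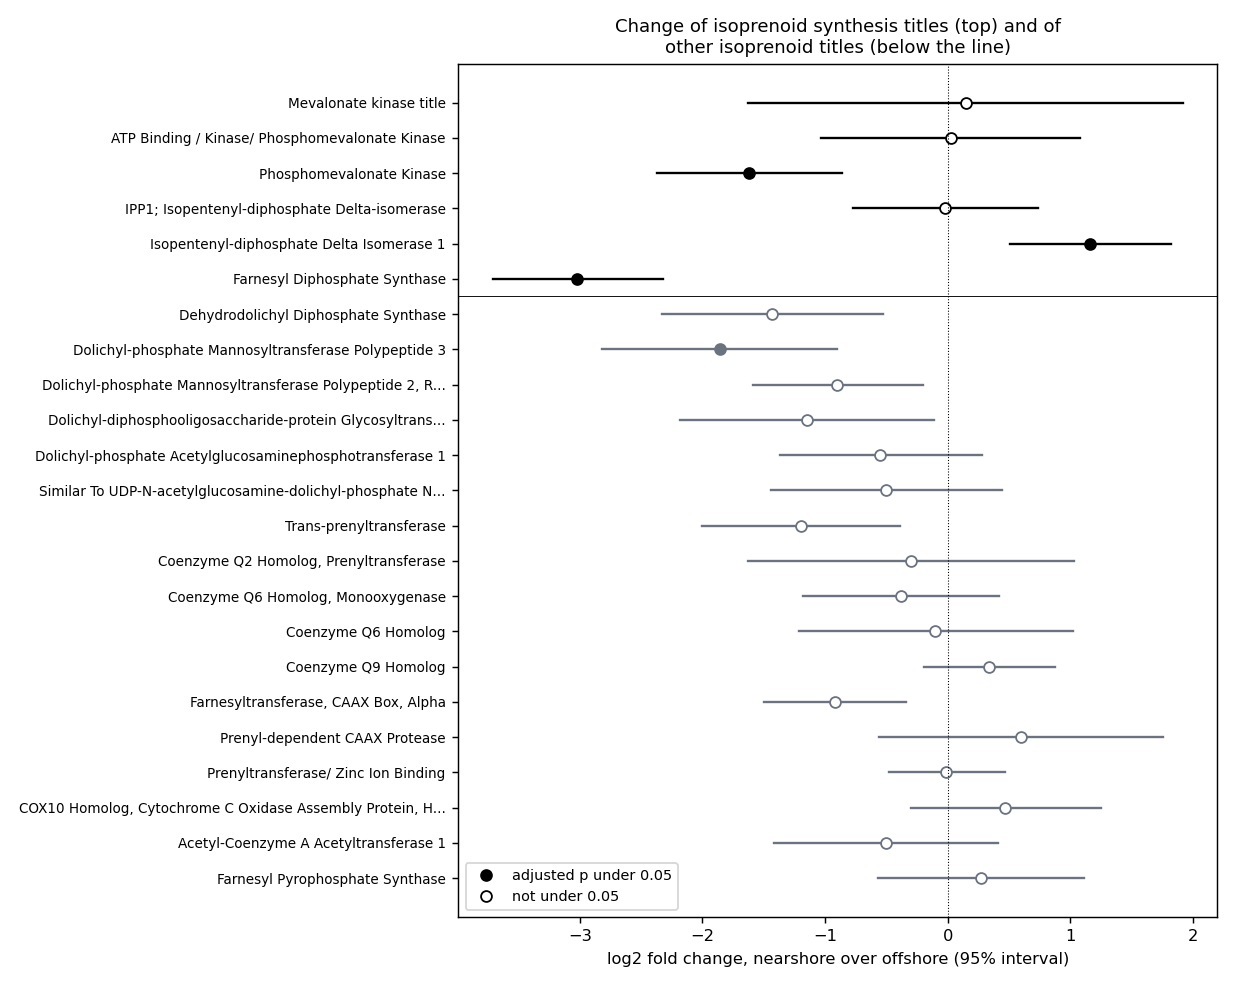
Log2 fold change, nearshore over offshore, with its 95% interval, of the 6 isoprenoid synthesis titles (black, above the line) and of 17 other isoprenoid titles (grey). Filled points had an adjusted p under 0.05. The 6 dolichol titles, directly under the line, all lie left of 0, and 1 of them is filled.

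Values by animal showed where the nearshore animals were alike. Relative to the offshore mean, Farnesyl Diphosphate Synthase was at -3.62 in NF1, -2.85 in NF3 and -2.58 in NM3. Phosphomevalonate Kinase was at -1.46 in NF1, -1.72 in NF3 and -1.66 in NM3, while Isopentenyl-diphosphate Delta Isomerase 1 was at 1.67 in NF1, 0.69 in NF3 and 1.13 in NM3. Among the branches, Dehydrodolichyl Diphosphate Synthase was lowest in NF1, at -1.84, and the oligosaccharide-transferring title Dolichyl-diphosphooligosaccharide-protein Glycosyltransferase had 8.29 in NM3, against 9.93 in NF1 and 9.95 in NF3.

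**Figure D5:**
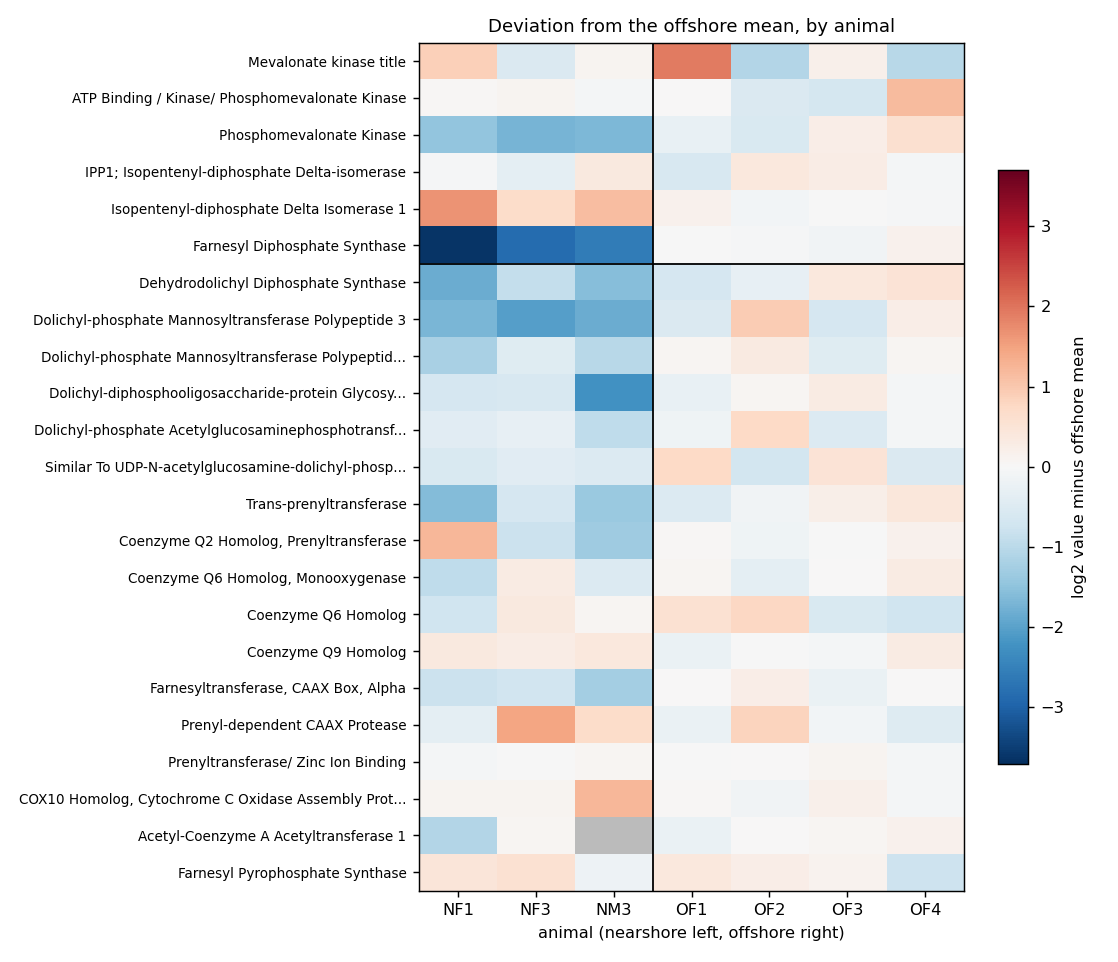
Log2 value minus the offshore mean for the 6 isoprenoid synthesis titles (above the line) and 17 other isoprenoid titles, in the 3 nearshore (left) and 4 offshore animals (right). Blue is lower and red higher, and grey is a missing value. Farnesyl Diphosphate Synthase has the deepest blue, in all 3 nearshore animals.

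Titles with a profile most like that of the changed isoprenoid titles were sought among 3195 titles with a name that identifies a protein. The measure was the root mean square difference of the centred log2 values over the 7 animals. It is small where both titles deviate by similar amounts from their own means, even if the order of animals within a site differs. Nearest to Farnesyl Diphosphate Synthase was DnaJ Homolog, Subfamily B, Member 11 at 0.247. It helps proteins fold in the endoplasmic reticulum and was measured at 4.42 in NF1, 5.52 in NF3 and 6.27 in NM3, against 8.09 to 8.65 offshore. It was followed by Molybdenum Cofactor Synthesis 2 (0.317), Tnf Receptor-associated Factor 1 (0.365), CNDP Dipeptidase 2 (0.415) and Cytochrome P450, Family 3, Subfamily A, Polypeptide 65 (0.422). In each of these NF1 was the lowest animal, as in Farnesyl Diphosphate Synthase, which the choice of titles by their likeness to it favours.

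Nearest to Phosphomevalonate Kinase were ATP Synthase G Chain, a subunit of the mitochondrial ATP synthase, at 0.179, Heat Shock 10kDa Protein 1, a mitochondrial co-chaperonin, at 0.258, and Mitochondrial Ribosomal Protein S34 at 0.272. Similar To Carboxylesterase Family Member (0.280) and Mannosidase, Endo-alpha (0.284) came next. Nearest to Isopentenyl-diphosphate Delta Isomerase 1 were HIV-1 Rev Binding Protein 2 (0.166), Lipocalin 8 (0.200), Similar To Nucleoside Diphosphate Kinase Homolog 5 (0.214), Dynactin 2 (0.214) and Ubiquitin A-52 Residue Ribosomal Protein Fusion Product 1 (0.218).

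Summed signals of the matrix and muscle lists were higher nearshore. The summed signal of 18 extracellular matrix titles was 16.89 to 17.28 on the log2 scale nearshore, against 15.09 to 15.45 offshore, so the sites did not overlap. Collagen, Type VI, Alpha 3 gave the most to it in every animal (16.24 to 16.54 nearshore, against 14.86 to 15.14 offshore). Collagen, Type I, Alpha 1 came next (15.32 to 15.96, against 12.1 to 13.16), so the sum says little of the other titles. Of the 18 titles 3 rose, both collagens among them, and 15 did not pass. Thus 16.7% changed, against 9.24% of all titles. The summed signal of 23 muscle titles was 12.96 to 13.45 nearshore, against 12.11 to 12.73 offshore. Among its bright titles, Tropomyosin 1 had 9.75 to 10.99 nearshore, against 6.66 to 8.79 offshore. The sites overlapped in Myosin, Light Polypeptide 9, Regulatory (10.61 to 11.33, against 10.05 to 11.06) and Actin, Alpha, Cardiac Muscle (10.58 to 11.54, against 10.06 to 11.46). Of the 24 titles on the muscle list 3 rose, 1 fell and 20 did not pass, so 16.7% changed, against 9.24% of all titles. Means were higher nearshore in 17 and lower in 7. The fall was in Adenylosuccinate Synthetase, Non Muscle, and 1 rise was in Myosin, Heavy Polypeptide 9, Non-muscle, which by name are not muscle forms. The sites overlapped in the summed signal of the haemocyte titles (16.41 to 17.5 nearshore, against 17.31 to 18.14 offshore) and the sperm and axoneme titles (12.95 to 13.51, against 13.26 to 13.95). They also overlapped in the digestive gland titles (13.77 to 17.44, against 12.15 to 17.17). That sum was higher in NF1, NM3, OF1 and OF3 (15.73 to 17.44) than in NF3, OF2 and OF4 (12.15 to 13.77). The dim mevalonate kinase title was also higher in the former animals (2.01 to 3.81, against 0.84 to 1.37). The summed signal of 5 oocyte and germ cell titles was 13.68 to 17.18 nearshore, against 17.1 to 17.5 offshore, and Vitellogenin 2 gave the most to it in every animal. Of these 5 titles, 0 passed in limma, and 3 had an unadjusted p under 0.05, against 26.1% of all titles. Piwi-like 1 was lower nearshore, and Bol, Boule-like and 1 zona pellucida-like title were higher. In such whole-tissue RNA, fewer cells of a type and less RNA per cell cannot be told apart, and the part of these markers in the isoprenoid values was not tested.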

How the data were processed

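Ovary RNA of 7 queen conchs, 3 nearshore and 4 offshore, was labelled with Cy3 (1 ug of total RNA per animal) and hybridised to 1 Agilent array each, per the labels' protocols. The submitters' processing notes name Agilent Feature Extraction as the scanner software. The authors deposited 1 log2 value per gene title and array. The log base was read from the range of the values, while the sources used here do not state the normalization, the background treatment, how probes were condensed or how titles were assigned. It holds no detection calls, and the number of arrays limits the precision. Animals are named by the codes in their titles.

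All 4328 titles were fitted with limma 3.58.1 in R 4.3.3 (lmFit and eBayes, site as the term), with Benjamini-Hochberg adjustment over all titles and a threshold of 0.05. The fit was tested on simulated data. The isoprenoid titles, the lists (as title patterns) and the rules for naming titles were chosen with earlier results of these data known. Named were every isoprenoid title, the titles with the smallest p of each list of related enzymes, up to 4, and the 5 titles nearest in profile to each changed isoprenoid title. Animals that share a number in their codes (NF1 and OF1, NF3, NM3 and OF3) were separate wild animals, so site was fitted without a block. Alternatives were 3 normalizations between arrays, a filter on dim titles, array weights, other variance priors, an ordinary pooled-variance test, exact permutation, averaging titles of 1 enzyme (with the farnesyl synonym too, added after the values were seen), the code number as a block and leaving out each animal. The comparison of title pairs and the grouping of the 17 related titles by branch were added after the values were seen. Some titles of the lists are not reported here.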

Additional observations from a re-analysis of the deposited data

How the results depend on the processing

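Farnesyl Diphosphate Synthase kept its direction in the alternatives run for it. Its exact permutation p of 0.0286 was not adjusted over all titles, so that alternative gives no call. Among the others it kept its call in all but the replicate block (-3.02, limma adjusted p = 0.223). That block took the number in the animals' codes, which pairs nothing by design. It left 2 residual degrees of freedom and called 0 titles in all and 0 isoprenoid titles, with 1.18 for Isopentenyl-diphosphate Delta Isomerase 1, -1.62 for Phosphomevalonate Kinase, -0.67 for the mevalonate kinase title, 0.08 for the IPP1 title and a median of -0.29 over the isoprenoid titles. The deviations of same-numbered animals from their site means correlated at 0.01 for NF1 with OF1, -0.21 for NF3 with OF3 and 0.29 for NM3 with OF3. The ordinary pooled-variance test called 143 titles, against 400, and 1 of the isoprenoid titles, since Phosphomevalonate Kinase (-1.62, adjusted p = 0.0652) and Isopentenyl-diphosphate Delta Isomerase 1 (1.16, adjusted p = 0.0726) no longer passed. Averaging titles of 1 enzyme, which joins a title that passed with one that did not, gave -0.79 for phosphomevalonate kinase and 0.57 for the isomerase, 1 call and a median of -0.32. Farnesyl Diphosphate Synthase was not joined with a second title in that alternative, and joining it with Farnesyl Pyrophosphate Synthase, an alternative chosen after seeing the data, gave -1.37 (limma adjusted p = 0.0204), with 1 call and the same values for the others. Median centring gave 1.13 for Isopentenyl-diphosphate Delta Isomerase 1 (limma adjusted p = 0.0544) and -0.01 for ATP Binding / Kinase/ Phosphomevalonate Kinase. The IPP1 title turned to 0.13 after quantile normalization and 0.03 after cyclic loess. Leaving out the dimmest 25% of titles removed the 3 dim isoprenoid titles and moved their median to -1.62.

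Leaving out each animal in turn gave 34 to 302 titles in all and 1 to 2 isoprenoid titles. The changes ran from -1.80 to -1.42 for Phosphomevalonate Kinase, 0.91 to 1.40 for Isopentenyl-diphosphate Delta Isomerase 1, -0.22 to 0.78 for the mevalonate kinase title, -0.19 to 0.42 for ATP Binding / Kinase/ Phosphomevalonate Kinase and -0.21 to 0.16 for the IPP1 title. The causes were not tested. All 6 isoprenoid titles name a synthesis enzyme, so keeping only such titles changed nothing. Without background values, the dim titles cannot be said to lie above background.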

Other observations

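Sterols are products of the route in many animals. Of 8 titles for sterol handling, none of which names an enzyme of sterol synthesis, 0 passed in limma and 0 in the ordinary pooled-variance test, against 9.24% of all titles in limma, and 2 had an unadjusted p under 0.05, against 26.1% of all titles. Of the 8, 4 had higher and 4 lower means nearshore. The 2 with an unadjusted p under 0.05 were Oxysterol Binding Protein-like 10 and Oxysterol Binding Protein-like 6, lipid transfer proteins. Their log2 fold changes were -1.43 and -1.23 (limma adjusted p of 0.179 and 0.180). Sterol Carrier Protein 2, Liver, a lipid carrier of peroxisomes, averaged 10.20 ± 0.64 nearshore (SD, n = 3) and 10.76 ± 0.19 offshore (n = 4). STARD3 N-terminal Like, a protein of late endosomes that binds membranes together, stood at 6.02 in the imposex female NM3, against 1.55 in NF1, 1.61 in NF3 and 0.83 to 1.53 offshore. Its log2 fold change was 1.94 with NM3 and 0.46 without it.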
